A study of Mus musculus with 10 samples.

Results

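The RNA of mouse platelets, which are cell fragments without a nucleus released by megakaryocytes, holds very large amounts of Ctla2a. The genes described here are 8 rows of the platelet count table, of 23420 rows in all: the inhibitors Ctla2a and Ctla2b, the cystatins Cst3 and Cstb, and the cysteine cathepsins Ctsl, Ctsb, Ctss and Ctsz. They were chosen by name, with the rank of Ctla2a as the second most abundant row already known, so the order of their levels is given as a description. The comparison is of 5 libraries of Tomato+ platelets with 5 of Tomato- platelets, sorted by flow cytometry from the peripheral blood of adult mice. Tomato is a red fluorescent protein. Its driver, the genotype, strain and exact age of the mice, and whether each library is a separate animal were not given in the sources used here. For that reason p-values speak only of library-to-library spread, which may be technical.

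Cysteine cathepsins are proteases of the lysosome that cut proteins with a cysteine in their active site, and they are made as precursors whose propeptide blocks that site until it is removed. The Ctla2 proteins resemble the propeptide of cathepsin L-type proteases without the protease that follows it, act as inhibitors of such proteases, and were first described in activated T cells and mast cells. Cystatins are a second family of inhibitors that plug the active site: cystatin C (Cst3) is secreted, and cystatin B (Cstb) stays in the cytosol. Ctsl and Ctsb encode broadly expressed lysosomal proteases, Ctss a protease of antigen-presenting cells that trims the invariant chain, and Ctsz a carboxypeptidase also called cathepsin X.

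The 2 Ctla2 genes lie on the minus strand of chromosome 13 in GRCm38, with Ctla2b from 60895350 to 60897447 and Ctla2a from 60934155 to 60936625. They are separated by 36707 bases that hold 2 other annotated genes in full, Tpbpb and Gm24594. Gm49391 and Gm49393, annotated as protein-coding on the same strand, each overlap both Ctla2 genes. The coding sequences below are shown because the likeness of the paralogs bears on how reads are divided between their rows. Each starts at the first coding base that both transcripts share, runs 5′ to 3′ for 266 bases, and has the positions at which the paralogs differ in capitals (GENCODE M21, transcripts Ctla2a-201, coding bases 73 to 338, and Ctla2b-201, coding bases 1 to 266).
Ctla2a: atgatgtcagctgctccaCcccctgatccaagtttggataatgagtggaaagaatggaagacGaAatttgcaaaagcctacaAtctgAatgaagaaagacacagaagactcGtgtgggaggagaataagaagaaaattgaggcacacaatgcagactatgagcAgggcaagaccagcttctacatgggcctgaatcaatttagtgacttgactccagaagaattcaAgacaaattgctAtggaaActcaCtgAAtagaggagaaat
Ctla2b: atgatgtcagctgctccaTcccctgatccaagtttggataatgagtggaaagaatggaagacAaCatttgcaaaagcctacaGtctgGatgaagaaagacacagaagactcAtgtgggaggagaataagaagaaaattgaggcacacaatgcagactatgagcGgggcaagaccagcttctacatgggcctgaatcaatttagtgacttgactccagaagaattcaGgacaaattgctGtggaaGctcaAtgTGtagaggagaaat

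Over the 339 coding bases of Ctla2b-201, 326 were identical in Ctla2a-201 and 13 differed (96.2% identity), all 13 within the stretch shown. The coding sequence of Ctla2a-201, 411 bases, has 72 further bases at its 5′ end. Among windows of 50 bases along Ctla2b-201, 94 of 793 (11.9%) occurred unchanged in a Ctla2a transcript, and 0 of 743 windows of 100 bases did. Reads over most of Ctla2b-201 thus differ from Ctla2a, but the handling of multi-mapped reads was not given in the sources used here, so the split of counts between them is uncertain. In GENCODE M21, Gm49391 on the same strand shares 1035 of the 1723 exon bases of Ctla2b and 343 of the 2108 of Ctla2a. Gm49392 shares 390 exon bases with Ctla2b. Neither gene has a row of counts, the annotation used for counting was not given, and any effect of these overlaps on the counts was not tested. Against the coding sequence of Ctsl (Ctsl-201, 1002 bases), Ctla2a aligned from its base 47 to its end with Ctsl bases 14 to 404 at 60.8% identity, which is the 5′ part of the protease's coding sequence. Ctla2b aligned with Ctsl bases 46 to 404 at 61.5%.

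Total counts ranged from 6505769 to 16179973 in Tomato+ and from 5411417 to 10596707 in Tomato- libraries, and 807 to 2450 genes had a count in a library. Tomato- replicates 1, 2 and 5 had under 1000 detected genes. Sample numbers 1 to 5 in the titles are all Tomato+ and 6 to 10 all Tomato-, so any effect of sample order cannot be told apart from the group. Levels are in CPM, a gene's counts per 1000000 counts of its library. All 12 platelet marker genes had counts in every library, together 51330 to 68558 CPM in Tomato+ and 59145 to 70536 CPM in Tomato-. Among them Gp1ba came close to 0, with lowest values of 1.17 CPM in Tomato+ and 0.185 CPM in Tomato-.

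Ctla2a was abundant in both fractions. The 5 Tomato+ libraries, replicates 1 to 5, had 41343, 56076, 54901, 47556 and 46814 CPM, and the Tomato- libraries had 50154, 42855, 52706, 53408 and 48625 CPM. The groups overlapped over most of their range, and the lowest and the highest of the 10 values were both in Tomato+. The group means were 4.93 ± 0.612% of all counts in Tomato+ and 4.95 ± 0.421% in Tomato- (SD, n = 5 each). Ctla2a was the second row of the table by mean level over the 10 libraries (49444 CPM), below Tmsb4x (121031 CPM), which encodes the actin-sequestering thymosin beta 4, and just above the ribosomal RNA precursor Rn45s (46602 CPM). Within single libraries it held rank 2 or 3 in all 10.

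The spread of Ctla2a over the 10 libraries depended on the scaling. Its coefficient of variation, the SD as a percent of the mean CPM, was 10.02% on total counts, the second smallest of the 225 genes with at least 10 counts in every library, whose median was 43.3%. Some other very abundant genes were close to it there, with 12.6% for Tmsb4x and 14.3% for Cd9, a tetraspanin of the platelet surface. Others spread more, with 20.5% for Tsc22d1 and 36.3% for Rn45s, the row just below Ctla2a in level. With TMM factors the value for Ctla2a was 24.6%, at rank 26 of the 225, whose median was then 45.0%. For Ctla2b it was 35.1% on total counts and 42.4% with TMM factors, and for Cst3 73.9% and 52.7%.

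**Figure D1:**
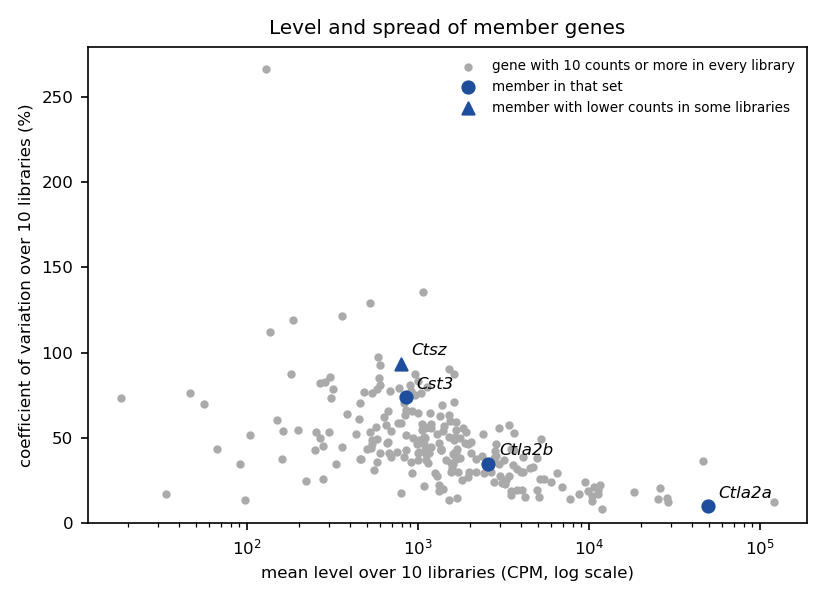
Mean level over the 10 libraries (x axis, CPM on a log scale) against the coefficient of variation over the same libraries (y axis, percent). Levels are scaled by total counts, and grey points are the 225 genes with at least 10 counts in every library. Ctla2a lies at the lower right with 10.02%, Ctla2b at 35.1% and Cst3 at 73.9%, while Ctsz (triangle, 93.6%) had fewer than 10 counts in some libraries.

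Ctla2b, the paralog of Ctla2a, was present in every library. It had 2191, 1967, 2906, 2617 and 2903 CPM in Tomato+ replicates 1 to 5, and 2540, 583, 4084, 3110 and 2846 CPM in Tomato-. The Tomato+ values lay inside the Tomato- range, whose lowest value, in Tomato- replicate 2, and highest, in replicate 3, were also the lowest and highest of all. The means were 2517 ± 424 CPM and 2633 ± 1284 CPM (SD, n = 5 each).

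Ctla2b made up a small part of the counts of the pair in each library. Its share of Ctla2a plus Ctla2b counts was 4.90 ± 0.908% in Tomato+ and 4.88 ± 2.16% in Tomato- (SD, n = 5 each). It was lowest in Tomato- replicate 2, at 1.34% (95% Wilson interval 1.30 to 1.38%), and highest in Tomato- replicate 3, at 7.19% (7.13 to 7.26%). These intervals treat each read as independent. Amplified reads without molecular identifiers are not independent molecules, so the intervals can be too narrow even for counting error. The spread between libraries was much wider than they are. Ctla2a had 12.9 to 73.5 times the counts of Ctla2b across the Tomato- libraries and 16.1 to 28.5 times across the Tomato+ libraries.

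**Figure D2:**
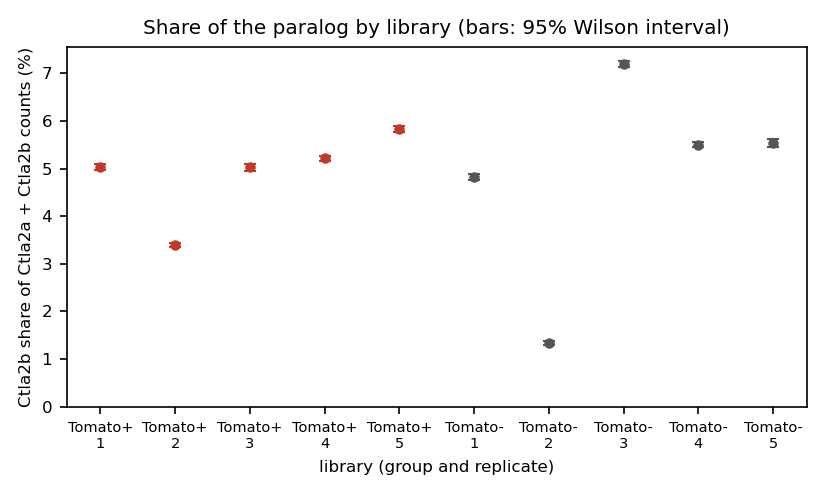
Share of Ctla2b in the counts of Ctla2a plus Ctla2b (y axis, percent) in each library (x axis, group and replicate), with 95% Wilson intervals as bars and Tomato+ in red. The shares run from 1.34% in Tomato- replicate 2 to 7.19% in Tomato- replicate 3, and the Tomato+ shares lie within that range.

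Of the cystatins, Cst3 had counts in every library and Cstb in none. Cst3 (chromosome 2, 148871722 to 148875692, minus strand) had 655, 805, 280, 758 and 752 CPM in Tomato+ replicates 1 to 5 and 456, 2552, 818, 900 and 523 CPM in Tomato-. One library, Tomato- replicate 2, stood far above the others, and the remaining Tomato- values lay close to the Tomato+ range. The means were 650 ± 214 CPM in Tomato+ and 1050 ± 861 CPM in Tomato- (SD, n = 5 each), and without Tomato- replicate 2 the Tomato- mean was 674 CPM. That library also had the lowest Ctla2b value and no Ctsz counts, and it had 978 detected genes. The part of that in these values was not tested.

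Ctsz was the most abundant cathepsin among the members, with large jumps between libraries. The gene (chromosome 2, 174427493 to 174439039, minus strand) had 723, 754, 0.769, 616 and 501 CPM in Tomato+ replicates 1 to 5, and 1277, 0, 746, 667 and 2600 CPM in Tomato-. Each group thus held 1 library with almost no counts, with 5 counts in Tomato+ replicate 3 and 0 in Tomato- replicate 2, where 3 counts would be 0.375 CPM. The means were 519 ± 306 CPM in Tomato+ and 1058 ± 974 CPM in Tomato- (SD, n = 5 each). Without Tomato- replicate 5, the library with the fewest detected genes, the Tomato- mean was 672 CPM.

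Ctsb (chromosome 14, 63122462 to 63145923, plus strand) was detected irregularly. In Tomato+ it had 263 CPM in replicate 2 and 80.2 CPM in replicate 5 and 0 counts in the other 3 libraries. In Tomato- it had 151, 9.18 and 0.375 CPM in replicates 4, 3 and 2 and 0 counts in the other 2. Both groups had libraries at 0 and libraries above 100 CPM. Of the 5 libraries with counts, 4 had 1421 or more detected genes, but Tomato+ replicate 4, with 1713 detected genes, had 0 Ctsb counts. Its exons share 774 bases with those of Fdft1 on the opposite strand, and whether counting used strand was not given in the sources used here. Fdft1 had 0 counts in all libraries.

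Cstb (chromosome 10, 78425669 to 78427622, plus strand), Ctsl (chromosome 13, 64359337 to 64370890, minus strand) and Ctss (chromosome 3, 95526786 to 95556403, plus strand) had 0 counts in all 10 libraries, as did 80.0% of the rows of the table. A count of 0 allows up to 3 counts, which are 0.185 to 0.554 CPM depending on the library. This covers counting error alone. Since Ctsz went from 754 CPM to under 1 CPM within Tomato+, the zeros do not bound the level of these 3 genes in the platelets themselves.

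**Figure D3:**
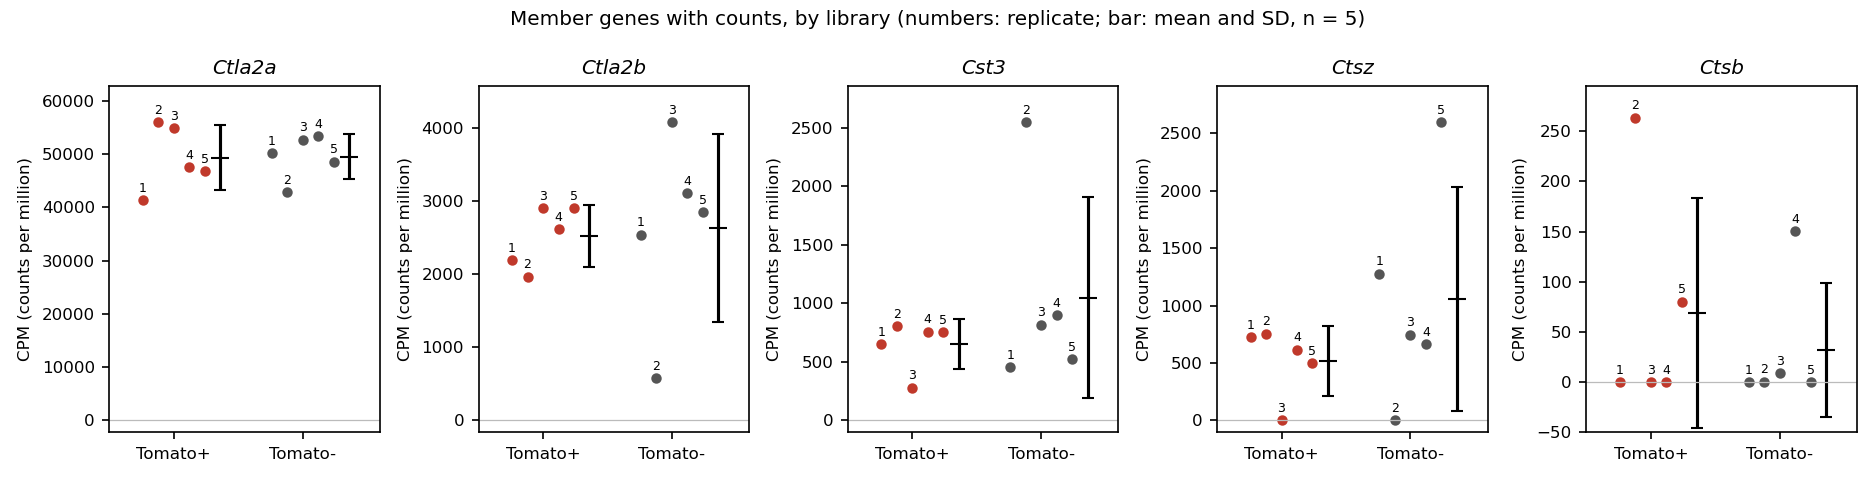
Levels of the 5 member genes with counts (y axis, CPM on linear axes that differ between panels) in each Tomato+ (red) and Tomato- (grey) library. Small numbers are replicates, and the black bars show the mean and SD of 5 libraries. The groups overlap for each gene, and Tomato- replicate 2 is the highest library for Cst3 and the lowest for Ctla2b, with 0 for Ctsz.

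Levels of different genes were compared per length, as CPM per kilobase of annotated exon, the mean over 10 libraries. Ctla2a had 23455 ± 2350 CPM per kb (SD, n = 10), second to Tmsb4x among all matched genes. Ctla2b followed with 1494 ± 524, Cst3 with 671 ± 496, Ctsz with 547 ± 512 and Ctsb with 8.32 ± 14.9 CPM per kb. The per-length level of Ctla2a was 15.7 times that of Ctla2b, 34.9 times that of Cst3 and 42.9 times that of Ctsz, and with the longest transcript as the length these ratios were 22.5, 36.4 and 65.8. Per kilobase, Ctla2a was above Ctla2b in 10 of 10 libraries and Ctla2b above Cst3 in 9 of 10, the exception being Tomato- replicate 2. Cst3 and Ctsz did not differ beyond their spread, with Cst3 higher in 8 of 10 libraries. Ctsz was above Ctsb in 9 of 10.

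No difference between the fractions was detected for any member. Of the 8 genes, 4 had enough counts to be tested with edgeR's quasi-likelihood test over all genes, and 0 of these 4 passed at a Benjamini-Hochberg adjusted p under 0.05, as did 0% of the 1016 genes tested. At an unadjusted p under 0.05, the members again gave 0 of 4, and 0.886% of all tested genes passed. The CPM of the fractions overlapped for all 5 members with counts. Of the 1016 tested genes, which do not include Ctsb, 0.591% had no overlap (0.492% with all Tomato+ values above and 0.0984% with all below). With a share this low, 0 of 5 does not set the members apart from other genes. Here and below, fewer platelets with a transcript and less of it per platelet cannot be told apart.

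For Ctla2a the log2 fold change of Tomato+ over Tomato- was 0.21 (SE 0.16, 95% interval -0.14 to 0.55, edgeR adjusted p = 0.9996). This is on the scale of TMM factors, which put the median of all tested genes at 0.21. With scaling by total counts that median was -0.03 and the estimate for Ctla2a was -0.0070 (95% interval -0.20 to 0.18). A difference of 2-fold in either direction, 1 on the log2 scale, lies outside both edgeR intervals, while the DESeq2 interval for Ctla2a was wider, from -2.57 to 2.73. Without the 3 libraries with under 1000 detected genes the edgeR estimate was -0.048. In edgeR with 1 library left out, the unadjusted p for Ctla2a was under 0.05 in 3 of 10 cases, 0.0148 without Tomato+ replicate 1, 0.0495 without Tomato- replicate 3 and 0.0384 without Tomato- replicate 4, with estimates of 0.30, 0.26 and 0.28. The adjusted p was at least 0.997 in each of these 3 cases, and the median of all tested genes was 0.17, 0.26 and 0.23.

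One of the other tools called Ctla2a. DESeq2 called 218 of the 1710 genes to which it gave an adjusted p, and 0 of the 5 members with counts. In limma voom without the replicate block Ctla2a had a log2 fold change of 0.59 (SE 0.02, adjusted p = 9.52e-08), while its adjusted p was 0.422 or more in the other 18 settings. One of these, limma voom with the replicate block, gave 0.27 with an unadjusted p of 0.0346 and an adjusted p of 0.994. Voom weights each library by an estimated precision, and for Ctla2a it gave 99.7% of the Tomato+ weight to replicate 3 and 99.7% of the Tomato- weight to replicate 5. The unweighted log2 levels with TMM factors were 15.78 ± 0.25 in Tomato+ and 15.55 ± 0.38 in Tomato- (SD, n = 5 each), a difference of 0.23 that is smaller than either SD. The call thus rests almost wholly on 1 library of each group, and it is not read as a difference.

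For Ctla2b the edgeR log2 fold change was 0.09 (SE 0.46, 95% interval -0.88 to 1.06), and it was -0.15 without Tomato- replicate 2 and -0.45 without the 3 libraries with few detected genes. For Cst3 it was -0.39 (SE 0.73, interval -1.93 to 1.16), and 0.043 without Tomato- replicate 2. For Ctsz it was -0.79 (SE 1.48, interval -3.93 to 2.36), and -0.19 without Tomato- replicate 5. The edgeR adjusted p was 0.9996 for each of the 3. In this main fit, the interval for Ctla2b excludes a 2-fold lower level in Tomato+ but not a 2-fold higher one. Those for Cst3 and Ctsz exclude neither. What is excluded changed with the setting. With scaling by total counts the interval was -0.90 to 0.77 for Ctla2b and -2.21 to 0.83 for Cst3. For Ctla2b it was -1.18 to 0.28 without the 3 libraries with few detected genes, and -2.73 to 2.77 in DESeq2.

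Of the 4 tested members, 2 estimates were above 0 (Ctla2a and Ctla2b) and 2 below (median log2 fold change -0.15), against 58.3% higher estimates over all tested genes. With scaling by total counts 0 of 4 were higher (median -0.38), against 48.6%.

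**Figure D4:**
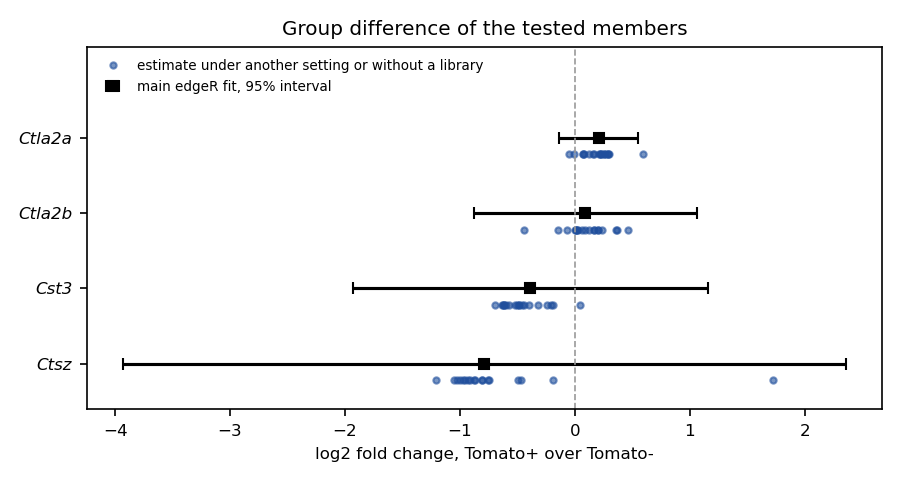
Log2 fold change of Tomato+ over Tomato- (x axis) for the 4 tested members (y axis). Black squares with bars are the main edgeR estimates with 95% intervals, and blue points are the estimates under other settings or without a library. Each interval includes 0, and it is narrowest for Ctla2a (-0.14 to 0.55) and widest for Ctsz (-3.93 to 2.36).

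The genes whose levels moved most like a member's from library to library were sought among 216 genes with at least 10 counts in every library (predicted gene models left out), by Pearson's r of log2 CPM with TMM factors over the 10 libraries. For Ctla2a these were Clu, which encodes the granule protein clusterin (r = 0.97), Gng11, a G protein gamma subunit (0.95), and Lamp2, a lysosomal membrane glycoprotein (0.93). All these points share the TMM factor of their library, and on total-count CPM the values for Clu, Gng11 and Lamp2 were 0.74, 0.61 and 0.72. The most alike genes changed with the scaling: on total-count CPM Rac1 (0.85) and Sh3bgrl2 (0.84) came first for Ctla2a and Gng11 had rank 10, Pfdn5 (0.94) came first for Ctla2b, and Mxi1 stayed first for Cst3, with Ehd4 (0.81) next. The likeness of Ctla2b was highest with Srgn, the granule proteoglycan serglycin (0.96, and 0.92 on total-count CPM), Ypel5 (0.93 and 0.92) and Treml1, a receptor of platelet granule membranes (0.92 and 0.87). For Cst3 the 3 genes were Mxi1, a partner of Max (0.84 and 0.87), coagulation factor F5 (0.83 and 0.81) and Nptn, which encodes neuroplastin (0.78 and 0.75). All these values include Tomato- replicate 2, the lowest library for Ctla2b and the highest for Cst3. How far they rest on that library was not tested.

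Between Ctla2a and Ctla2b, r over the 10 libraries was 0.81 on the TMM scale and 0.52 on total-count log2(CPM + 1), where it was 0.23 without Tomato- replicate 2. Between Ctla2b and Cst3 it was -0.44 on the TMM scale and -0.71 on total counts, where it was 0.050 without that library. On total counts this relation between Ctla2b and Cst3 thus rests on 1 library.

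The other cysteine cathepsins and cystatins had almost no counts, in a table in which 80.0% of all rows had none. Of 15 other cysteine cathepsins, Ctsw alone had counts, and only in Tomato+ replicate 1 (273 CPM). Of 21 other genes of the cystatin superfamily with a row, among them the stefin A genes of neutrophils, Fetub alone had a count, at 0.125 CPM in Tomato- replicate 2. The cytotoxic lymphocyte genes Ctla4, Gzma, Gzmb and Prf1 had 0 counts in all libraries. Among the serpins of clade B and the A3 group, which include inhibitors of serine and cysteine proteases, 3 of 10 had counts. Serpinb6a led them with 625 ± 325 CPM in Tomato+ and 950 ± 558 CPM in Tomato- (SD, n = 5 each). Serpinb9 had counts in 1 library of each group (182 and 51.6 CPM) and Serpinb2 in 1 Tomato+ library (69.3 CPM).

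Other lysosomal proteases were led by Ctsd, the aspartic protease cathepsin D. It had 2482, 3872, 1565, 3742 and 2470 CPM in Tomato+ replicates 1 to 5 and 3450, 1574, 4069, 3197 and 1161 CPM in Tomato-. The groups overlapped over most of their range (log2 fold change 0.22, SE 0.43, edgeR adjusted p = 0.9996). Per kilobase Ctsd had 1173 ± 451 CPM per kb (SD, n = 10), between Ctla2b and Cst3. Tpp1, a tripeptidyl peptidase, was seen in 3 Tomato+ and 1 Tomato- libraries, and the carboxypeptidase gene Cpq in 2 and 1.

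Genes of the lysosomal membrane and of sorting to the lysosome had counts for 11 of 19 members. For Laptm5 the means were 1103 ± 692 (Tomato+) and 1605 ± 386 CPM (Tomato-). The ranges of the lysosomal membrane glycoprotein genes overlapped, Lamp1 with 1332 ± 558 and 1184 ± 1034 CPM and Lamp2 with 1086 ± 483 and 895 ± 339 CPM (SD, n = 5 each). Lamp1 had 0 counts in Tomato- replicate 1 and 178 CPM in Tomato- replicate 2, against 786 CPM or more in the other 8 libraries.

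**Figure D5:**
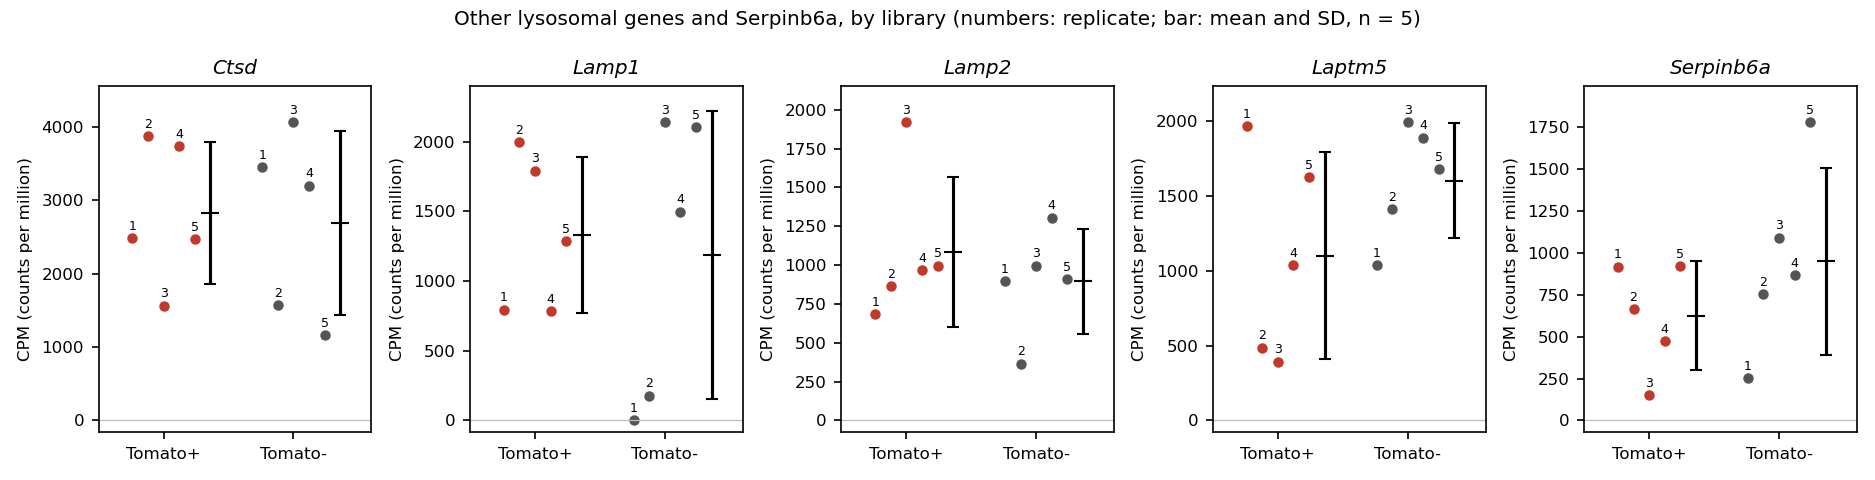
Levels of Ctsd, Lamp1, Lamp2, Laptm5 and Serpinb6a (y axis, CPM on linear axes that differ between panels) in each Tomato+ (red) and Tomato- (grey) library. Small numbers are replicates, and black bars show the mean and SD of 5 libraries. The groups overlap for each gene, and Lamp1 has 0 CPM in Tomato- replicate 1.

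Lysosomal hydrolases and their activators had counts for 11 of 25 genes. Hexa, a subunit of beta-hexosaminidase, had counts in 4 Tomato+ and 3 Tomato- libraries, up to 683 and 949 CPM. Psap, the precursor of saposins, had counts in 2 Tomato+ and 3 Tomato- libraries, up to 337 and 1188 CPM. Acp2, an acid phosphatase, had 1493 CPM in Tomato- replicate 5 and 0.0872 CPM or less in the other libraries.

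The vacuolar ATPase, the proton pump that acidifies lysosomes and granules, had counts for 13 of 19 subunit genes. For Atp6v0e the means were 592 ± 380 (Tomato+) and 956 ± 786 CPM (Tomato-). Atp6v1f had 353 ± 241 and 837 ± 343 CPM (SD, n = 5 each), and its ranges of 1.38 to 598 and 588 to 1420 CPM touched (log2 fold change -0.96, SE 1.20, edgeR adjusted p = 0.9996). Atp6v0b had counts in 2 Tomato+ and 3 Tomato- libraries. Of the calpain system, cytosolic cysteine proteases activated by calcium, 6 of 8 genes had counts. Capns1, the shared small subunit, averaged 140 ± 73.4 CPM in the Tomato+ and 38.4 ± 58.0 CPM in the Tomato- libraries (SD, n = 5 each), of which the 3 with under 1000 detected genes were at or below 0.370 CPM. Capn2 averaged 42.2 ± 45.5 and 545 ± 661 CPM, and Tomato- replicates 2 (988 CPM) and 5 (1480 CPM) were far above the rest. Capn7 had counts in Tomato+ replicate 3 alone.

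Over these 9 lists, 51 of 131 genes with a row had counts and 17 could be tested, and 0 of the 17 passed in edgeR, with 0 at an unadjusted p under 0.05. Their estimates were higher in Tomato+ for 7 and lower for 10 (median log2 fold change -0.37, against 0.21 over all tested genes). With scaling by total counts the split was again 7 and 10 (median -0.60, against -0.03). Without the 3 libraries with few detected genes 31 could be tested, with 13 higher and 18 lower (median -0.15, against -0.01).

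Cystatins and cathepsins are also abundant in monocytes, macrophages and neutrophils, so markers of other cells were measured beside them. Of 14 monocyte and macrophage markers with a row, 4 had counts, with summed levels of 6256 to 8692 CPM in Tomato+ and 5881 to 9029 CPM in Tomato-. Lyz2, which encodes lysozyme, made up nearly all of this, with 7672 ± 1117 and 7857 ± 1189 CPM (SD, n = 5 each). The next, Ms4a6c, had counts in 1 library (45.2 CPM). Fcgr1 had counts in 2 Tomato+ libraries (up to 18.7 CPM) and Ly6c2 in 1 (0.0872 CPM). The defining marker Csf1r was at 0 in all 10 libraries, as were Cd68, Cd14, Mpeg1 and Vcan. Of 12 neutrophil markers, Clec4d and S100a9 had counts, with sums of 0 to 532 CPM in Tomato+ and 0 to 276 CPM in Tomato-, while S100a8 was at 0. Of the lymphocyte markers, only Cd37 and Nkg7 had counts. Cd37 had them in 2 Tomato+ libraries (up to 115 CPM) and Nkg7 in 1 Tomato- library (20.7 CPM). Cd79a and Cd3e were at 0 in all 10 libraries. The mast cell marker Cpa3 was at 0, and Gata2, a transcription factor of that list, had counts in 4 libraries (up to 76.8 CPM). Red cell markers summed to 1.38 to 338 CPM in Tomato+ and 47.7 to 3440 CPM in Tomato-. The haemoglobin row Beta-s led them, with 3257 CPM in Tomato- replicate 4 and 696 CPM or less in every other library. Alas2 had counts in 1 Tomato- library (183 CPM), while Hba-a1, Hba-a2 and Slc4a1 were at 0 in all 10 libraries. Endothelial markers, some of which platelets express, summed to 464 to 1501 and 130 to 1725 CPM, led by Pecam1 and Tie1. Of the same list, Plvap had counts in 2 Tomato+ and 2 Tomato- libraries (up to 294 and 121 CPM). Kdr had counts in 1 Tomato- library (64.4 CPM), and Cdh5 and Emcn were at 0 in all 10 libraries.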

How the data were processed

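Per the labels' protocols, sorted platelets gave polyadenylated RNA that was copied by Smart-seq+ and built into Nextera XT libraries. The values deposited by the authors are unnormalized read counts, 1 row per gene symbol, for 10 libraries. The submitters' processing notes name Trimmomatic, FastQC, STAR, featureCounts and the build mm10; versions, annotation, strand setting and multi-mapping rule were not given in the sources used here.

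CPM uses the sum of all rows. Of the symbols, 21737 (92.8%) matched 1 gene of GENCODE M21 (GRCm38, the assembly that mm10 names), which gave coordinates, exon lengths and sequences. Sequences were aligned with Biopython 1.88. The fractions were tested in edgeR 4.0.16 under R 4.3.3 (quasi-likelihood test, robust, TMM, default filter with a minimum count of 10 and minimum total of 15, Benjamini-Hochberg at 0.05), with the group as sole term; SE is the fold change over the root of F. Alternatives were other factors and filters, DESeq2 1.42.0, limma 3.58.1 (voom), a replicate block and leaving out libraries.

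The members and lists were chosen with earlier results of these data known. Besides the members, the text names the neighbours of Ctla2a in rank, the 3 most abundant genes of each list, the 2 most abundant and the defining markers at 0 of each other cell type, and the 3 genes most like each member with at least 10 counts in every library. Cd68, Cd14, Mpeg1, Vcan, Fdft1, Tpbpb, Gm24594 and the lymphocyte genes at 0 were named after their values were seen. So were Cd9, Tsc22d1, Rac1, Sh3bgrl2, Pfdn5 and Ehd4. The same holds for Cdh5, Emcn, Kdr, Plvap, Fcgr1, Ly6c2, Gp1ba, Hba-a1, Hba-a2, Slc4a1, Gm49391, Gm49392 and Gm49393. Likeness on total-count CPM, the spread with TMM factors and the list counts under other settings were added after seeing the data.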

Additional observations from a re-analysis of the deposited data

Results flagged for a closer look

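In each group of 5 libraries, a value was marked where its gap to the nearest other library took up more than 0.71 of the group's range. Chance alone marks about 1 in 20 groups, and many genes here have counts in few libraries. Of 48 groups tested, 18 were marked, and of the 10 member groups among them 3 were. Cst3 had 2552 CPM in Tomato- replicate 2, where the next highest library had 900 CPM, and 280 CPM in Tomato+ replicate 3, where the next lowest had 655 CPM. Ctsb had 151 CPM in Tomato- replicate 4, with 9.18 CPM next.

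Among the other genes named, the single high libraries in Tomato+ were Tpp1 (645 CPM, replicate 2), Atp6v0b (302 CPM, replicate 2), Ctsw (273 CPM, replicate 1), Cpq (231 CPM, replicate 1), Lamp2 (1922 CPM, replicate 3), Capn7 (880 CPM, replicate 3), Serpinb9 (182 CPM, replicate 4), and in replicate 5 Serpinb2 (69.3 CPM) and Acp2 (0.0872 CPM, which is 1 count). In Tomato- they were Atp6v0e (2322 CPM) and Fetub (0.125 CPM, 1 count) in replicate 2, Tpp1 (322 CPM), Cpq (60.1 CPM) and Serpinb9 (51.6 CPM) in replicate 4, and Acp2 (1493 CPM) in replicate 5.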

How the results depend on the processing

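The count of genes called was 0 in edgeR with every factor, filter, block and left-out library tried. DESeq2 called 218 genes, limma voom 1 (Ctla2a) and limma voom with the replicate block 2. With 1 library left out, the count ranged from 0 to 0 in edgeR. For Ctla2a, the log2 fold change was 0.59 in limma voom (adjusted p = 9.52e-08), -0.0070 with scaling by total counts and -0.048 leaving out the 3 libraries in which fewer than 1000 genes were detected, and 0.12 to 0.30 with 1 library left out. For Ctla2b it was -0.065 with scaling by total counts, -0.45 without those 3 libraries, and -0.15 (without Tomato- replicate 2) to 0.36. For Cst3 the range with 1 library left out was -0.63 to 0.043, the highest without Tomato- replicate 2, and for Ctsz it was -1.21 to -0.19, with 1.72 in limma voom. Apart from the voom weights for Ctla2a, the cause was not tested. The per-length level of Ctla2a was 36011 CPM per kb with the longest transcript, and the share of Ctla2b in Tomato+ was 5.93% per kilobase. With 1 library left out, per-length levels ran from 23106 to 23882 (Ctla2a), 1397 to 1623 (Ctla2b), 522 to 721 (Cst3), 407 to 608 (Ctsz) and 4.41 to 9.25 CPM per kb (Ctsb), the lowest for Ctsb without Tomato+ replicate 2, and the share of Ctla2b from 4.67 to 5.28% in Tomato+ and from 4.30 to 5.76% in Tomato-.

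Same-numbered libraries did not deviate together: over 225 genes the correlations of the 5 pairs ran from -0.02 to 0.25, and 1 of 5 Tomato+ libraries correlated best with its own number. In edgeR with the replicate block, 0 genes were called, and the log2 fold changes were 0.23 for Ctla2a, 0.36 for Ctla2b, -0.24 for Cst3 and -0.87 for Ctsz. Scaling with TMM factors moved the coefficient of variation of Ctla2a from 10.02 to 24.6%. Ctsb was not tested in the main comparison, and its estimate was 1.05 (SE 3.51) without a filter.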
